A study of Arabidopsis thaliana with 6 samples.

Results

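The 48 probe sets described here were designed on the mitochondrial genome of Arabidopsis thaliana. They are the rows of the ATH1 array whose identifiers carry the numbers 244901 to 244931 and 244943 to 244959, and they make up 48 of the 22746 probe sets tested. RNA came from a mixotrophic cell culture, whose cells photosynthesise and also take up organic carbon. The culture received 75 µM phytoprostane A1 (PPA1) for 4 h, or 0.5% methanol in water for 4 h as the control, with 3 arrays in each group. The labels call the replicates independent without saying what separates them, so p-values measure only the spread between these samples, which may be technical. The labels do not say whether methanol was also present with PPA1. The study asked which transcripts change when cells meet this oxylipin, a product of the non-enzymatic oxidation of linolenic acid.

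Mitochondria keep a small genome of their own, a remnant of the bacterium they descend from. In plants it encodes a minority of the subunits of the respiratory chain and ATP synthase, proteins that attach haem to c-type cytochromes, some ribosomal proteins, a maturase for intron splicing, and a translocase subunit, while all other mitochondrial proteins are made from nuclear genes. Plant mitochondrial transcripts are spliced, edited from C to U, and trimmed, and their steady level is set to a large extent after transcription. The labelling kit that the labels name starts complementary DNA from poly(A) tails, and in plant mitochondria such tails are known to mark RNA for breakdown. A signal can therefore move with the tailed share of a transcript as well as with its amount, which was not tested. The nuclear genome of this species also carries a large copy of mitochondrial DNA on chromosome 2, and probes that match both copies cannot tell them apart.

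A table of array annotation pairs 17 of the 48 probe sets with 1 gene, 1 with several genes and 30 with none. Of the 17, 12 stand for a mitochondrial gene. These are nad4, nad4L, nad6, nad7 and nad9 of complex I, cox2 of complex IV, ccmB, ccmFC, ccmFN1 and ccmFN2 of cytochrome c maturation, the maturase gene matR, and mttB. The other 5 are listed under nuclear genes of chromosome 2, namely AT2G07674, AT2G07708, AT2G07732, AT2G07751 and AT2G07776. The 30 without a listed gene are called by their identifiers, and what they detect is not stated. The suffix _s_at, which marks probes that can match more than 1 transcript, is carried by 14 of the 48.

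After PPA1, 37 of the 48 mitochondrial probe sets had a lower mean log2 signal than in the controls and 11 had a higher one, but none passed the test across the array. In limma with Benjamini-Hochberg adjustment over all 22746 probe sets, 0 were called higher and 0 lower at an adjusted p under 0.05, where the array as a whole gave 0.809% higher and 0.994% lower, or 1.8% in either direction. Their adjusted p ran from 0.0753 to 0.984. At an unadjusted p under 0.05 limma gave 2 higher and 8 lower, against 8.26% and 14.8% of the array. The median log2 change of the 48 was -0.60, beside -0.21 for the array as a whole, where 61.2% had a lower mean after PPA1. Relative to the array medians, the 48 gave a median change of -0.38 and all tested probe sets one of 0.01. In bulk RNA, fewer cells of a type and less RNA per cell cannot be told apart.

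The 2 groups of arrays did not overlap for 2 of the 48 in the upward direction and for 8 in the downward direction. Over all tested probe sets these shares were 10.8% and 20.1%, so the mitochondrial probe sets separated the groups in 20.8% of cases against 31% on the whole array. Centred on the array medians, 4 lay wholly above and 5 wholly below the controls, beside 16.8% and 12.9% of all tested probe sets.

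Signals differed widely among the 48, as the plot of all of them shows. The mean log2 signal ran from -0.27 to 9.80, and 30 of the 48 reached a mean of at least 4, which corresponds to a signal of 16 in the authors' normalized units. That is 62.5% of them, beside 65.3% of all tested probe sets. Probe sets past this limit are called brighter from here on. On the control arrays 34, 33 and 35 of the 48 had a signal of at least 16, and after PPA1 the numbers were 32, 26 and 24. The 48 together took 0.138% ± 0.0406 (SD, n = 3) of the summed control signal and 0.103% ± 0.0511 (SD, n = 3) of that after PPA1, so the shares overlapped. The highest share, 0.184%, belonged to control replicate 1, followed by PPA1 replicate 1 at 0.161%, and the lowest shares, 0.0689% and 0.0778%, to PPA1 replicates 2 and 3.

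**Figure D1:**
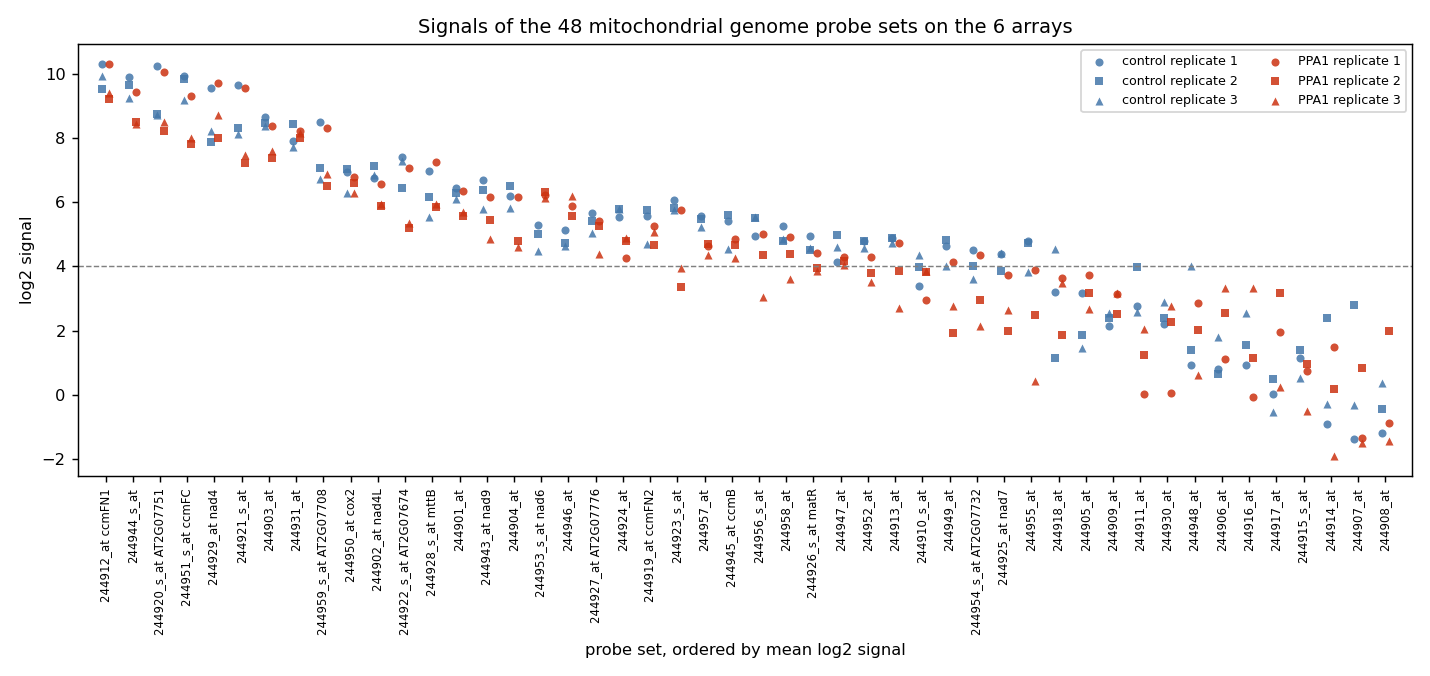
Log2 signals of the 48 mitochondrial genome probe sets, ordered by their mean, with control arrays in blue, PPA1 arrays in red and the marker shape giving the replicate number; the dashed line marks a log2 signal of 4. Below that line the arrays scatter widely, and above it PPA1 replicates 2 and 3 often lie under the controls while PPA1 replicate 1 lies among them.

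The 18 dimmer probe sets could not be read for direction. Their signals went from 0.266 to 28.2, and 11 of them stayed under 16 on every array. The median SD between controls was 0.59 on the log2 scale for these 18 and 0.36 for the 30 brighter ones, and between PPA1 arrays it was 1.12 and 0.56. Both the largest difference upward (1.79) and the largest downward (-2.18) among the 48 lay in this dim class. The dimmest pair, 244907_at and 244908_at, differed by -1.04 and 0.31 with standard errors of 1.23 and 0.98. Among the 30 brighter probe sets, 25 had a lower and 5 a higher mean after PPA1, and the log2 changes ran from -1.52 to 1.29. Over all tested probe sets of that brightness 60.8% had a lower mean.

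Refitting limma on the 14850 brighter probe sets of the array called 4 of the 30, 2 higher and 2 lower, where 5.39% and 8.79% of all probe sets in that fit were called. The share of the mitochondrial probe sets was thus near that of the array for both directions. The 4 were nad6 and 244946_at, which were higher, and 244924_at and 244957_at, which were lower; apart from nad6 they were chosen after their values were seen. Relative to the array medians the same fit called 2 higher and 0 lower, against 8.03% and 5.25% of the array. Within replicates 2 and 3 alone the same fit called 2 higher and 14 lower, against 14.6% and 22.6% of the array, and without PPA1 replicate 1 it called 2 and 16, against 14.9% and 23%, or 37.9% in either direction. Over the whole array, leaving out PPA1 replicate 1 gave 0 higher and 10 lower, against 6.32% and 7.51%. With array weights, which let limma count variable arrays less, 3 were called higher and 12 lower, against 9.36% and 14.6%. In the fit on brighter probe sets, leaving out PPA1 replicate 2 gave 0 and 0 calls, against 1.19% and 1.78% of the array. Leaving out PPA1 replicate 3 gave 0 and 0, against 1.06% and 1.38%, and leaving out control replicate 2 gave 0 and 0, against 0.741% and 0.626%. Leaving out control replicate 1 gave 1 and 0, against 1.99% and 3.25%, and leaving out control replicate 3 gave 1 and 0, against 2.02% and 3.15%. Calls thus became few over the whole array in these 5 fits, and the counts of the mitochondrial probe sets were near its share.

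Complex I, the NADH dehydrogenase that feeds electrons into the chain, was represented by 5 probe sets, and 3 of these had a lower mean after PPA1. None passed over the whole array (limma adjusted p from 0.0753 to 0.833). The nad6 probe set 244953_s_at, for a membrane subunit of the proton-pumping arm, went against the majority. It read 39.5, 32.4 and 22.5 in control replicates 1 to 3 and 75.3, 79.2 and 70.0 in PPA1 replicates 1 to 3. Every PPA1 array lay above every control, and the PPA1 arrays differed little among themselves. The mean log2 signal was 4.94 ± 0.41 (SD, n = 3) in controls and 6.22 ± 0.09 (SD, n = 3) with PPA1, a log2 change of 1.29 (SE 0.27, limma adjusted p = 0.0753), or 2.44-fold. Among brighter probe sets the limma adjusted p was 0.0228, with a range of 0.00980 to 0.237 over all alternatives. The nad6 call also held in that fit relative to the array medians (limma adjusted p = 0.0167).

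The nad4L probe set 244902_at, for a small membrane subunit, gave signals of 108, 140 and 116 in controls and 94.3, 59.5 and 62.0 after PPA1. The groups did not overlap, and PPA1 replicate 1 was the closest to the controls. The log2 change was -0.78 (SE 0.27, limma adjusted p = 0.166), and -1.07 within replicates 2 and 3. The nad7 probe set 244925_at, for a subunit of the arm that carries the quinone site, was dim, at 21.0, 14.5 and 21.3 in controls and 13.4, 4.00 and 6.17 after PPA1. The groups did not overlap here either, and all PPA1 arrays and control replicate 2 were under a signal of 16. Its log2 change was -1.43 (SE 0.48, limma adjusted p = 0.164).

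The nad9 probe set 244943_at, for a subunit of the matrix arm, stood at 103, 83.2 and 55.7 in controls and at 71.1, 44.1 and 29.0 after PPA1. Here the groups overlapped, since PPA1 replicate 1 lay above control replicate 3. The log2 change was -0.80 (SE 0.42, limma adjusted p = 0.306). The nad4 probe set 244929_at, for another membrane subunit, followed the replicate number more than the treatment. It read 750, 235 and 300 on the control arrays and 838, 255 and 419 on the PPA1 arrays, with a log2 change of 0.25 (SE 0.62, limma adjusted p = 0.833). That sign turned to -0.09 without control replicate 2 and to -0.20 without PPA1 replicate 1.

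Complex IV, the cytochrome c oxidase that passes electrons to oxygen, had 1 probe set of its own, 244950_at for the subunit gene cox2. Signals of 124, 132 and 78.4 in controls and of 111, 96.5 and 78.8 after PPA1 overlapped. The log2 change was -0.20 (SE 0.29, limma adjusted p = 0.705), and it was 0.01 relative to the array medians.

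All 4 probe sets of cytochrome c maturation had a lower mean after PPA1, and none passed the test (limma adjusted p from 0.188 to 0.688). These genes encode parts of the membrane machinery that brings haem to cytochromes of the c type. The ccmFC probe set 244951_s_at gave 975, 921 and 590 in controls and 639, 227 and 259 after PPA1. PPA1 replicates 2 and 3 lay below every control, and PPA1 replicate 1 lay inside the control range. Its log2 change was -1.27 (SE 0.47, limma adjusted p = 0.188), the largest difference downward among the 17 probe sets with a group mean of 6 or more on the log2 scale. Without PPA1 replicate 1 it was -1.74 and called (limma adjusted p = 0.0316, with a range of 0.00471 to 0.419 over all alternatives).

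The ccmFN1 probe set 244912_at, for another part of the haem ligation complex, gave 1283, 745 and 983 in controls and 1280, 600 and 683 after PPA1. Both replicate 1 arrays were the highest of their groups, and the log2 change was -0.28 (SE 0.38, limma adjusted p = 0.688). Leaving out 1 array moved it between -0.61, without PPA1 replicate 1, and -0.067, without PPA1 replicate 2, and relative to the array medians it was also -0.067. The ccmFN2 probe set 244919_at differed by -0.35 with a standard error of 0.35, and the ccmB probe set 244945_at by -0.59 with a standard error of 0.35. For ccmB, which encodes a channel subunit of a haem exporter, PPA1 replicates 1 and 2 still lay above control replicate 3. Leaving out 1 array moved ccmFN2 between -0.67 and -0.14 and ccmB between -0.91 and -0.38, both at their extremes without control replicates 3 and 2. The groups overlapped for ccmFN1, ccmFN2 and ccmB.

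The matR probe set 244926_s_at, for a maturase encoded inside an intron of nad1, was close to the limit for dim signals. It gave 30.9, 22.6 and 24.0 in controls and 21.4, 15.3 and 14.6 after PPA1. The groups did not overlap, by a narrow margin, and the log2 change was -0.60 (SE 0.25, limma adjusted p = 0.232). The mttB probe set 244928_s_at, for a membrane protein of the twin-arginine translocase family, gave 125, 72.0 and 46.3 in controls and 154, 58.4 and 62.1 after PPA1. Both replicate 1 arrays were again the highest, and the log2 change was 0.14 (SE 0.54, limma adjusted p = 0.896). It was -0.31 without PPA1 replicate 1.

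**Figure D2:**
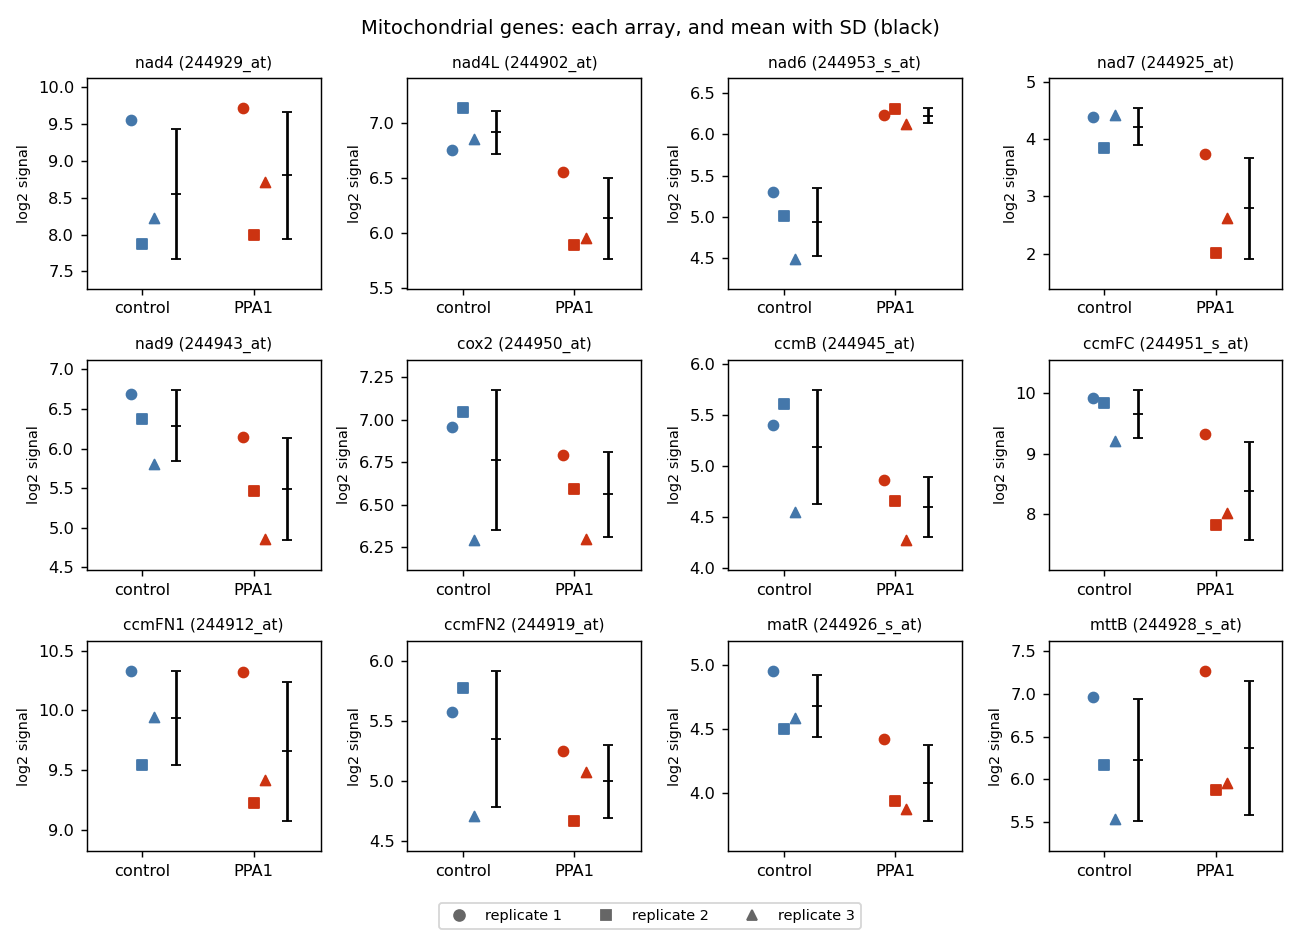
Log2 signals of the 12 probe sets that stand for 1 mitochondrial gene, for each control (blue) and PPA1 (red) array, with the mean and SD of the 3 arrays in black and an axis range of its own in each panel. The PPA1 arrays lie above all controls for nad6, below all controls for nad4L, nad7 and matR, and overlap the controls for the other 8 genes.

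Among the 30 probe sets without a listed gene, 14 were brighter, and 12 of these had a lower mean after PPA1, with a median log2 change of -0.78. The probe set 244946_at gave 35.3, 26.6 and 24.9 in controls and 58.6, 47.5 and 72.7 after PPA1. All 3 PPA1 arrays lay above the controls, and the log2 change was 1.04 (SE 0.26, limma adjusted p = 0.103, and 0.0361 among the brighter probe sets, where all alternatives gave 0.0203 to 0.291). Under the replicate block its limma adjusted p among the brighter probe sets was 0.0597, so the call was lost. It and nad6 were the 2 probe sets of the 48 whose groups separated upward.

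Lower after PPA1 was 244924_at, at 47.0, 55.1 and 55.8 in controls and 19.0, 28.0 and 29.7 after PPA1. Here PPA1 replicate 1 was the lowest array of all, unlike in most of the set. The log2 change was -1.07 (SE 0.25, limma adjusted p = 0.0924, and 0.0304 among the brighter probe sets, with a range of 0.0113 to 0.275 over all alternatives). The probe set 244957_at had log2 signals of 5.57, 5.48 and 5.22 in controls and 4.64, 4.71 and 4.36 after PPA1, with the PPA1 arrays close together below the controls. Its log2 change was -0.85 (SE 0.22, limma adjusted p = 0.103, and 0.0356 among the brighter probe sets, with a range of 0.0179 to 0.294 over all alternatives). The replicate block took the latter limma adjusted p to 0.0504, past the threshold. Neither 244924_at (limma adjusted p = 0.0597) nor 244957_at (0.0714) was called in the fit on brighter probe sets relative to the array medians.

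The probe set 244904_at gave 73.1, 90.5 and 56.4 in controls and 71.8, 27.9 and 24.3 after PPA1, a log2 change of -0.98 (SE 0.47, limma adjusted p = 0.276). The annotation table lists 244944_s_at under 2 mitochondrial genes, rps3 and rpl16. This probe set gave 950, 811 and 607 in controls and 696, 366 and 345 after PPA1, a log2 change of -0.80 (SE 0.36, limma adjusted p = 0.248). In both 244904_at and 244944_s_at, PPA1 replicate 1 lay inside the control range and PPA1 replicates 2 and 3 lay below it. For 244931_at the groups overlapped, with 243, 347 and 209 in controls and 297, 257 and 289 after PPA1. Its log2 change was 0.11 (SE 0.26, limma adjusted p = 0.828), and the sign turned to -0.05 without control replicate 3.

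The 5 probe sets listed under nuclear genes of chromosome 2 all had lower means after PPA1, from -1.18 to -0.19 on the log2 scale, and in none were the groups separate. The one with the largest difference, 244922_s_at for AT2G07674, gave 172, 87.7 and 158 in controls and 135, 36.9 and 40.9 after PPA1. Its log2 change was -1.18 (SE 0.59, limma adjusted p = 0.285). The probe set 244920_s_at for AT2G07751 gave 1227, 428 and 420 in controls and 1071, 298 and 365 after PPA1, so that each replicate 1 array stood well above the other arrays of its group. Its log2 change was -0.31 (SE 0.66, limma adjusted p = 0.809), and it was 0.20 without control replicate 1.

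The difference between the groups came with a difference between the treated arrays. Taking arrays of equal replicate number, the median log2 difference of the 48 between PPA1 and control was -0.19 for replicate 1, -0.73 for replicate 2 and -0.74 for replicate 3. All tested probe sets gave -0.07, -0.21 and -0.28 in the same order. The 69 probe sets of 1 plastid gene, described further below, gave -0.22, -0.50 and -0.61. A signal at least 2-fold lower was found for 4, 18 and 18 of the 48, which is 8.33%, 37.5% and 37.5%, beside 13.2%, 21.1% and 25.1% of all tested probe sets. A signal at least 2-fold higher was found for 4, 5 and 4 of the 48. That is 8.33%, 10.4% and 8.33%, beside 12.3%, 15.0% and 13.1% of all tested probe sets. Relative to the array medians the 3 median differences of the 48 were -0.04, -0.52 and -0.45.

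**Figure D3:**
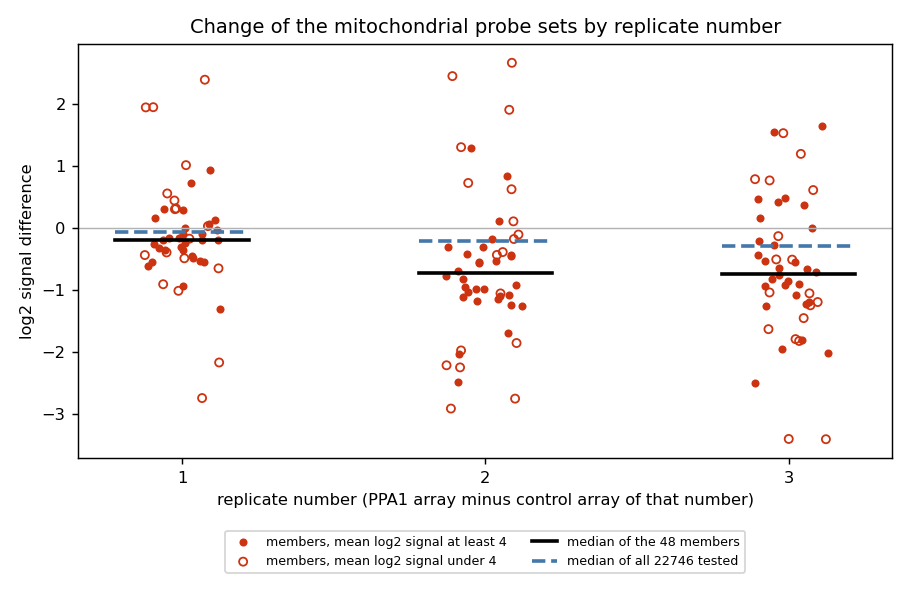
Log2 difference between the PPA1 and the control array of the same replicate number for each of the 48 probe sets, filled for the brighter ones; black lines give the median of the 48 and dashed blue lines the median of all 22746 tested probe sets. The median of the 48 is -0.19 in replicate 1 and -0.73 and -0.74 in replicates 2 and 3, while the medians of all probe sets are -0.07, -0.21 and -0.28.

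Among the 30 brighter probe sets, PPA1 replicate 1 lay inside the range of the controls for 20, whereas this held for 35.3% of all tested probe sets of that brightness. PPA1 replicates 2 and 3 both lay below every control for 19 of the 30, and in 13 of these 19 PPA1 replicate 1 was inside the control range. Over all tested probe sets of that brightness, 40.8% had PPA1 replicates 2 and 3 below every control. PPA1 replicate 1 was the highest of the PPA1 arrays for 26 of the 30, beside 49.6% over the array. By their median, the 69 plastid probe sets also had the highest signal on PPA1 replicate 1. Their median log2 signal was 8.44 there, 7.59 on PPA1 replicate 2 and 7.76 on PPA1 replicate 3. The median SD of the 30 between PPA1 arrays, 0.56, was larger than the 0.31 of all tested probe sets of that brightness.

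Some mitochondrial probe sets split the arrays by replicate number across both conditions. Both replicate 1 arrays lay above the other 4 arrays for 10 of the 48 (20.8%), and for 8.31% of all tested probe sets. They lay below the other 4 for 3 of the 48, against 6.46%. Relative to the array medians the count above was 13, against 9.05%. At a mean log2 of at least 6 the counts were 7 of 14, against 9.79%. The 10 include nad4, mttB, ccmFN1 and the chromosome 2 entries AT2G07708, AT2G07732 and AT2G07751, and 4 probe sets without a listed gene. Their replicate 1 arrays exceeded the other 4 by 0.48 to 1.82 on the log2 scale, while their median log2 change after PPA1 was -0.29.

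The largest split was that of 244921_s_at, at 809, 318 and 281 in controls and 756, 150 and 179 after PPA1; it was chosen after its values were seen. The manufacturer's probe set for 25S ribosomal RNA, which stands for RNA of the cytosolic ribosome, showed the same split, with replicate 1 arrays 1.35 higher on the log2 scale than the other 4. It read 5345, 3024 and 3237 on the control arrays and 5105, 1345 and 1322 on the PPA1 arrays. What the replicate 1 arrays share is not stated in the labels, and its part in the mitochondrial signals was not tested. With replicate 1 against the rest as a batch term, limma called 0 of the 48 over the whole array, against 0.73% higher and 0.717% lower. It called 2 higher and 7 lower among the brighter probe sets, where 8.82% and 13.5% of the array were called, or 22.3% in either direction.

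**Figure D4:**
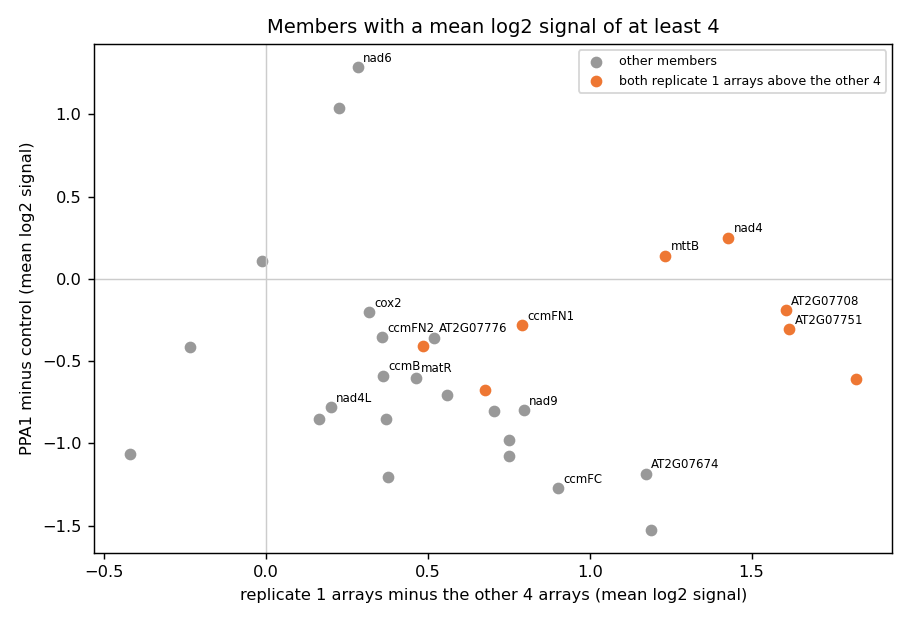
For the 30 brighter mitochondrial probe sets, the log2 difference between the replicate 1 arrays and the other 4 arrays (horizontal) is set against the log2 difference between PPA1 and control (vertical), with orange points where both replicate 1 arrays lie above the other 4. nad4, mttB, AT2G07708 and AT2G07751 lie far to the right near the zero line of the PPA1 difference, and nad6 lies at the top with a small replicate difference.

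Other probe sets of mitochondrial genes lie outside the numbers that define the 48. The annotation table lists 11 more probe sets under 1 mitochondrial gene, and 10 of these had a lower mean after PPA1, with a median log2 change of -0.56 (limma adjusted p from 0.181 to 0.757, 0 called). Of these, 7 are listed for nad1, a complex I subunit whose exons are joined by trans-splicing, and their log2 changes ran from -0.81 to -0.28. The cox1 probe set 257333_at, for the catalytic subunit of complex IV, differed by -0.48 with a standard error of 0.20, and its groups did not overlap. Of the 2 nad5 probe sets, 257337_at differed by -0.53 and 257338_s_at by 0.15, so their signs differed. A further 11 probe sets are listed under a mitochondrial gene together with another gene, with a median log2 change of -0.27 and a range from -0.88 to 0.88. Of these, 8 had a lower mean after PPA1. The largest rise was that of 265229_s_at, whose PPA1 arrays all lay above the controls. Its log2 change was 0.88 (SE 0.23, limma adjusted p = 0.109, and 0.0392 among the brighter probe sets).

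The 69 probe sets of 1 plastid gene, the other organelle genome, had a median log2 change of -0.37, or -0.16 relative to the array medians. Over the whole array 0 of them were called. The fit on brighter probe sets held 67 of the 69 and called 0 higher and 2 lower, against 5.39% and 8.79% of the array. Their groups did not overlap upward for 1 and downward for 18 of the 69, beside 2 and 8 of the 48 mitochondrial probe sets. Over all tested probe sets these shares were 10.8% and 20.1%. In replicates 1 to 3, 1.45%, 11.6% and 18.8% of them were at least 2-fold lower after PPA1. Both replicate 1 arrays lay above the other 4 for 39.1% of them, a larger share than the 20.8% of the mitochondrial probe sets. These differences were not tested.

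Nuclear genes of mitochondria were taken from lists, and the annotation table covered these in part. Only probe sets listed under 1 gene were counted. For the respiratory chain and ATP synthase, 15 of 31 genes had 16 probe sets, of which 0 were called, 8 had a lower mean, and the median log2 change was 0.01. The largest change was that of CYTC-2, a gene for cytochrome c, which read 9.95, 9.70 and 9.33 (log2 signal) on the control arrays and 10.73, 11.34 and 11.30 on the PPA1 arrays. The log2 change of CYTC-2 was 1.47 (SE 0.28, limma adjusted p = 0.0672). Of 10 genes of the alternative pathway, 3 had a probe set and 0 were called. NDB2, an external NAD(P)H dehydrogenase that bypasses complex I, had the largest change, 1.67 (SE 0.40, limma adjusted p = 0.0947), and its groups did not overlap. In the fit on brighter probe sets CYTC-2 (limma adjusted p = 0.0188) and NDB2 (0.0320) were called higher. Of 24 genes that act on mitochondrial DNA and RNA, 5 had a probe set, 0 were called (limma adjusted p from 0.283 to 0.946), and the median log2 change was -0.04. Of these 5, 3 had a lower mean.

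Across the series the deposited table holds 22810 rows, of which 64 are manufacturer controls. With 3 arrays per group, their number limits the precision, and a count of 0 calls does not show that levels were alike. The label of a cell culture could not be checked against cell type markers. Of the 14 marker genes fixed for this, 0 had a probe set listed under that gene alone, and probe sets of several genes were not searched.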

How the data were processed

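RNA of 6 samples was measured on Affymetrix ATH1 arrays, 1 sample per array. Each deposited value is the linear intensity of a probe set after GCRMA normalization by the authors, a step named in the submitters' processing notes, per the labels. Its version was not stated. GCRMA subtracts a modelled background, so folds of dim probe sets depend on that step.

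Signals were taken to log2 with no added constant. The 22746 probe sets other than manufacturer controls entered 1 model in limma (version 3.58.1, R 4.3.3; lmFit, eBayes) with a term for treatment only, tested two-sided and adjusted by Benjamini-Hochberg over all of them, at a threshold of 0.05. Python 3.11.15 made the counts and figures. Dim means a mean log2 signal under 4 (a signal of 16). Over all probe sets, 13513 have 1 gene in the platform annotation, 503 several and 8730 none. Symbols of mitochondrial genes were brought up to date through RefSeq synonyms (TAIR10.1).

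The probe sets and gene lists were chosen with earlier results of these data known. Probe sets were named if called, among the 5 largest differences in each direction with a group mean log2 of 6 or more (only 4 were positive), among the 3 brightest or 2 dimmest, or of 1 mitochondrial gene. Their signals on every array were given, except for ccmFN2, ccmB and the 2 dimmest, which have the log2 change and its standard error. Alternatives covered scaling, limits on dim probe sets, 32 added before log2, the variance model, array weights, a block for the replicate number, replicate 1 as a batch, replicates 2 and 3 alone, and leaving out each array.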

Additional observations from a re-analysis of the deposited data

How the results depend on the processing

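Counts are given as higher and lower. Of the 48 mitochondrial probe sets, limma called 0 and 0 as deposited, and also with median centring, quantile normalization, the replicate block, a lower limit of 6 on the mean log2 signal, and replicate 1 as a batch. It called 2 and 2 with a limit of 4, 1 and 2 with 32 added before log2, 1 and 0 with the robust variance trend, 3 and 12 with array weights (9.36% and 14.6% of the array), 0 and 1 within replicates 2 and 3, 1 and 1 with the replicate block joined to the robust variance trend, and 1 and 1 with the replicate block under the limit of 4. Without 1 array at a time it called 0 and 0 to 10 over the whole array, and 0 to 2 and 0 to 16 under the limit of 4; both highest lower counts came without PPA1 replicate 1. Settings chosen after seeing the data, all under the limit of 4, gave 2 and 0 with centring, 2 and 14 within replicates 2 and 3, 2 and 7 with replicate 1 as a batch, and 2 and 2 with that batch and centring. Groups that did not overlap numbered 2 and 8, beside 10.8% and 20.1% of the array. Centring gave 4 and 5, beside 16.8% and 12.9%. Quantile normalization gave 4 and 4, the limit of 6 gave 0 and 1, and replicates 2 and 3 alone 4 and 26. Under the limit of 4, replicates 2 and 3 gave 2 and 20, and centring with or without the batch 2 and 4. Without 1 array at a time these were 3 to 4 and 8 to 24, or 2 to 3 and 6 to 19 under the limit of 4. The 19 came without PPA1 replicate 1, where 40.8% of the brighter probe sets of the array lay below every control. Shares of the array are not given here for the other settings. Groups of fewer arrays separate more easily, so those counts are not read as particular to the 48. The median log2 change of the 48 was -0.60, became -0.22 with 32 added, and lay between -0.78 and -0.39 when 1 array was left out, or -0.87 and -0.41 under the limit of 4.

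Over all tested probe sets the counts were 184 and 226. They became 801 and 1305 with the limit of 4, 802 and 1046 with the limit of 6, 748 and 1349 with 32 added, 791 and 1171 with the robust variance trend, and 2130 and 3324 with array weights. The replicate block gave 0 and 0 (limma), 833 and 1096 with the robust variance trend, and 610 and 947 under the limit of 4. Replicates 2 and 3 alone gave 769 and 640, and 2167 and 3350 under the limit of 4, where centring gave 1193 and 780, replicate 1 as a batch 1310 and 2000, and both 1941 and 1205. Without 1 array at a time the ranges were 0 to 1437 and 0 to 1708, and under the limit of 4 they were 110 to 2220 and 93 to 3415; without control replicate 1 that limit gave 295 and 483, and without control replicate 3 it gave 300 and 468. The limits also leave fewer probe sets to test. The cause of the changed counts was not tested.

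Over 28 alternatives and 22 named probe sets, 63 of 568 values passed where the main one did not, and 22 in 7 probe sets changed sign, none of them called. Sign changes were 0.011 for 244950_at with centring, alone, under the limit of 4, or with the batch, -0.22 for 244928_s_at and -0.10 for 244931_at with array weights. The rest came from leaving out 1 array, where the values ran from -1.91 to 0.17 for 244907_at, -0.74 to 0.97 for 244908_at (-0.07 without control replicate 1), -0.87 to 0.20 for 244920_s_at (0.050 without PPA1 replicate 2), -0.31 to 0.51 for 244928_s_at (-0.20 without control replicate 3), -0.20 to 0.75 for 244929_at (-0.087 without control replicate 2) and -0.049 to 0.32 for 244931_at. Signals under 16 lie near background, which limits what the 18 dim probe sets can show. The labels do not say what a replicate number shares, and the arrays do not settle it. Set against the group means, control and PPA1 arrays of equal number deviated with r = 0.06, 0.03 and 0.02 over all tested probe sets, with 0.16, 0.24 and 0.15 at a mean log2 of at least 6, and with 0.51, 0.58 and -0.08 over the 30 brighter mitochondrial ones. The best partner of every array had its number in the first 2 sets and not in the last, a hint from the data and not the design, so the block was kept as an alternative. With the replicate block under the limit of 4, nad6 (limma adjusted p = 0.0375) and 244924_at (0.0402) were called, and 244957_at (0.0504) and 244946_at (0.0597) were not.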
